A study of Mus musculus with 11 samples.

Results

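The genes of the TGF-β pathway described here were its main ligand Tgfb1, the receptors Tgfbr1, Tgfbr2 and Tgfbr3, the signal carriers Smad2, Smad3 and Smad4, and the inhibitors Smad7, Ski and Skil. They were taken by gene name from the table of read counts and make up 10 of its 54532 genes. RNA sequencing was performed on CD8+ Tregs, FACS sorted as CD8+CD44+Ly49+CD122+ from the spleens of wild-type (WT) C57BL/6J mice. Of the 11 libraries, 6 were young (3 of each sex) and 5 middle-aged (2 of males and 3 of females), each described as an independent replicate. Young mice were 2 to 3 months old and middle-aged mice, which the sample labels call old, were 10 to 12 months old. The paper gives a single age for each group, the upper end of each range. No mouse carried an altered allele or received a treatment, and the sources used here do not say whether a library held cells of 1 animal or of several, so p-values measure the spread between these samples. The comparison asks whether the transcripts of this pathway differed between CD8+ Tregs of the 2 ages.

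TGF-β1 is made as a latent protein and is active only once it is released from its prodomain. It binds TGF-βRII (Tgfbr2), which recruits and phosphorylates TGF-βRI (Tgfbr1). Tgfbr1 phosphorylates Smad2 and Smad3, which enter the nucleus with Smad4 and regulate target genes. Smad7 blocks the receptor complex, and Ski and SnoN (Skil) hold Smad complexes in a repressed state. In T cells the pathway restrains proliferation and effector differentiation, and in CD8+ Tregs it is known to be needed together with the transcription factor Eomes.

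Total counts ranged from 6135736 in young male 1 to 24394532 in young female 2, and a count of 0 allows up to 0.119 to 0.543 CPM (counts scaled to library size with TMM factors), which covers counting error only. All 10 markers of the sorted cells were detected in all 11 libraries, and their summed level ranged from 6286 to 9784 CPM at the young and from 6176 to 9428 CPM at the older age. Of markers of other cells, the summed myeloid list was 52.4 to 219 CPM in young libraries and 154 to 2702 CPM in middle-aged ones, with the highest value in middle-aged female 2. The summed platelet and erythroid list was 22.8 to 116 CPM at the young and 0.998 to 35.6 CPM at the older age, with Gp1bb at 0 counts in every library. The number of a replicate went with the coverage of long genes. For each library, log2 CPM minus the gene's mean over all libraries was fitted on log2 gene length. The slope was -0.265 to -0.0944 in the 4 libraries numbered 1, 0.0142 to 0.0887 in the 4 numbered 2 and 0.158 to 0.183 in the 3 numbered 3. Its sign compares libraries with one another. Nothing in the labels says what a replicate number stands for. The 10 genes are 3549 to 9694 bases long in the table, against a median of 3808 bases over all 13129 genes tested.

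All 10 genes passed the filter on low counts, and transcripts of 9 of them were detected in every library. Per kilobase of gene length, Smad4 had the highest mean level over the 11 libraries, 29.4 ± 11.04 CPM per kb (SD, n = 11), followed by Smad2 with 21.8 ± 3.04 and Tgfbr2 with 20.1 ± 12.2 CPM per kb. Tgfb1 (12.9 ± 5.54 CPM per kb), Smad3 (12.5 ± 6.51) and Smad7 (10.9 ± 4.10) lay in the middle. Ski (4.43 ± 2.25 CPM per kb), Skil (2.83 ± 1.32) and Tgfbr1 (2.65 ± 1.29) were lower, and Tgfbr3 was lowest with 0.469 ± 0.465 CPM per kb. Most neighbours in this order did not hold their places in all libraries. Tgfb1 was above Smad3 in 6 of 11 libraries, Ski above Skil in 6 of 11, and Skil above Tgfbr1 in 4 of 11. Tgfbr1 was above Tgfbr3 in 11 of 11 libraries, and Smad7 above Ski in 10 of 11. The place of Smad2 rests on its length. The table gives 3549 bases, the GENCODE M21 annotation gives 8781 bases of merged exons, and with the latter its mean level was 8.83 ± 1.23 CPM per kb, below Smad7. The lengths of the other 9 genes were the same in both sources.

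**Figure D1:**
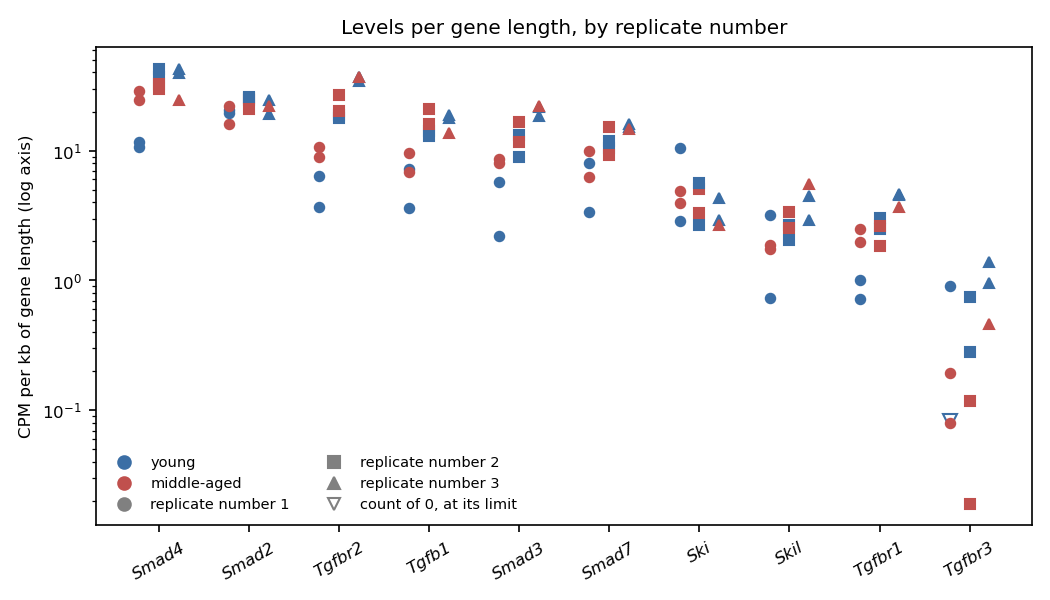
Level of each gene per kilobase of gene length (log axis) in each library, with replicate numbers side by side, young in blue and middle-aged in red. Tgfbr2 and Smad3 separate by replicate number, Smad2 spans a narrow range (15.98 to 26.1 CPM per kb), and the open triangle shows the library with a Tgfbr3 count of 0 at the limit that count allows.

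Transcript levels of the 10 genes were compared between 5 middle-aged and 6 young libraries with edgeR's quasi-likelihood test in a model with sex and age. None of the 10 passed an adjusted p of 0.05, a threshold that 3 of the 13129 genes passed (0.0229%). At an unadjusted p under 0.05, 1 of the 10 was lower in middle-aged CD8+ Tregs (Tgfbr3), against 0.990% of all genes tested, and 0 were higher, against 2.00%. In limma voom and in DESeq2, 0 of the 10 passed an adjusted p of 0.05, against 1.05% and 0.853% of all genes tested. The 2 age groups overlapped in all 10 genes, whereas they did not overlap in 1.31% of all genes tested (1.01% higher and 0.297% lower in middle-aged libraries). With an offset for gene length in edgeR, 0 of the 10 passed an adjusted p of 0.05, against 0.0305% of all genes tested, and Tgfbr3 alone had an unadjusted p under 0.05, against 3.40%. The median log2 fold change (middle-aged over young) was -0.02 over the 10 genes and 0.00 over all genes tested, with 5 values above 0 and 5 below. In bulk samples, fewer cells that express a gene and less RNA per cell cannot be told apart.

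**Figure D2:**
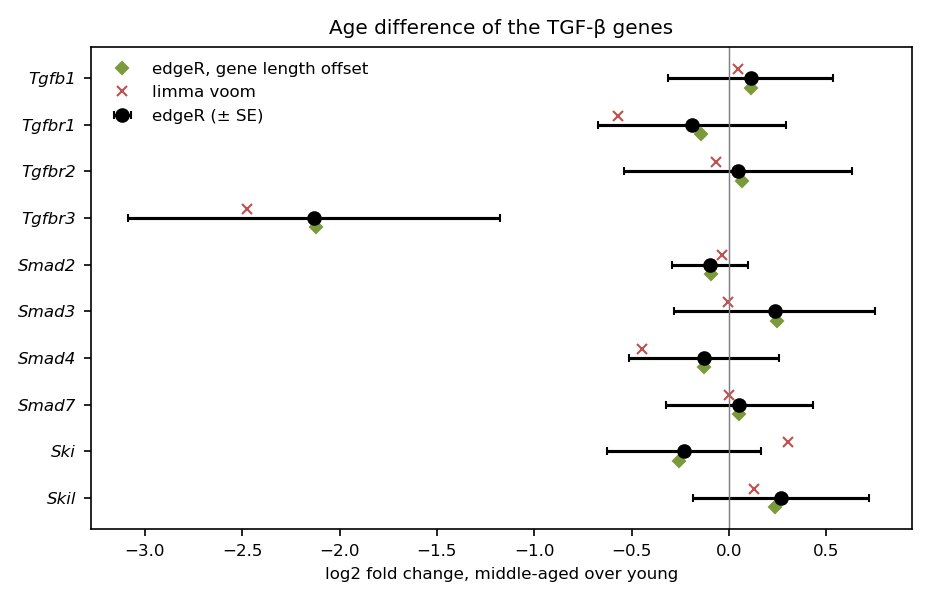
Log2 fold change, middle-aged over young, of each gene in edgeR (black, with its standard error), in edgeR with an offset for gene length (green) and in limma voom (red crosses). Tgfbr3 lies at -2.13, and the other 9 values in edgeR lie between -0.23 and 0.27 with standard errors of 0.19 to 0.59.

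Tgfb1 (ENSMUSG00000002603, chr7:25687002-25705077, plus strand, GRCm38) encodes the ligand. Its level in young libraries ran from 18.1 CPM in male 1 to 95.6 CPM in male 3, with a median of 68.0 CPM. Middle-aged libraries had 48.0 CPM in male 1, 106 in male 2, 34.7 in female 1, 81.3 in female 2 and 69.5 in female 3. Both ages thus spanned a wide range, and the low values in each were those of libraries numbered 1. Means were 62.8 ± 30.4 CPM in young (SD, n = 6) and 67.8 ± 27.9 CPM in middle-aged libraries (SD, n = 5). The log2 fold change was 0.11 (SE 0.42), with an adjusted p of 1.00 in edgeR and p = 0.699 in the exact 2-sided permutation test of log2 CPM.

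Tgfbr2 (ENSMUSG00000032440, chr9:116084293-116175360, minus strand) encodes the receptor that binds the ligand. Its young values ran from 30.2 CPM in male 1 to 301 CPM in male 3, with a median of 150.1 CPM. The middle-aged values were 72.9 CPM in male 1, 219 in male 2, 87.6 in female 1, 165 in female 2 and 300.1 in female 3. The highest values of the 2 ages were nearly equal, and both groups spread over several fold. Mean levels were 161 ± 113 CPM in young libraries and 169 ± 94.3 CPM in middle-aged ones. The difference of 0.05 (SE 0.59, log2) had an adjusted p of 1.00 in edgeR, and the exact permutation p was 0.682. With a spread of this size this comparison gives the age difference of Tgfbr2 only loosely. The spread went with the replicate number, as set out below. Middle-aged minus young, mean log2 CPM differed by 1.01, 0.34 and 0.04 in libraries numbered 1, 2 and 3.

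Tgfbr1 (ENSMUSG00000007613, chr4:47353222-47414931, plus strand) encodes the kinase that passes the signal to Smad2 and Smad3. It ran from 4.70 CPM in male 1 to 30.5 CPM in female 3 among young libraries, with a median of 18.01 CPM. Middle-aged libraries had 13.0 CPM in male 1, 12.1 in male 2, 16.4 in female 1, 17.0 in female 2 and 24.1 in female 3. All 5 middle-aged values fell within the young range. The log2 fold change was -0.19 (SE 0.48, adjusted p = 1.00 in edgeR). Mean log2 CPM differed by 0.15, in the other direction, and the exact permutation p of that difference was 0.773.

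Per gene length, Tgfbr2 was higher than Tgfbr1 in 11 of 11 libraries, by 4.27-fold to 14.4-fold with a median of 7.36-fold. The log2 ratio of Tgfbr1 to Tgfbr2 counts within a library was -3.05 ± 0.25 in young and -3.19 ± 0.75 in middle-aged libraries. It differed between the ages by -0.15 (exact 2-sided permutation test, p = 0.671), 1 of 3 ratios compared. The promoters of this receptor pair are shown because their transcripts differed in level in every library. Both are from RefSeq on GRCm38.p6 and run from 250 bases before to 50 bases after an annotated start, in the direction of the gene, with each GGGCGG or CCGCCC (the GC box on either strand) in capitals. Of 2 starts listed for Tgfbr1 the upstream one is shown, at chr4:47352972-47353271 on the plus strand, and Tgfbr2 lies at chr9:116175314-116175613 on the minus strand.
Tgfbr1: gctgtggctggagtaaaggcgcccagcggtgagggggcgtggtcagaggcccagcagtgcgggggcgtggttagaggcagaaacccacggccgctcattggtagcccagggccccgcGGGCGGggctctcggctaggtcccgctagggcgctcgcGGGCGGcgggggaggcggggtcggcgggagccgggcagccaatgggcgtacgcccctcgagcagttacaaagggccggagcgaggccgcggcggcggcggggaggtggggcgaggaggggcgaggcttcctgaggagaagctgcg
Tgfbr2: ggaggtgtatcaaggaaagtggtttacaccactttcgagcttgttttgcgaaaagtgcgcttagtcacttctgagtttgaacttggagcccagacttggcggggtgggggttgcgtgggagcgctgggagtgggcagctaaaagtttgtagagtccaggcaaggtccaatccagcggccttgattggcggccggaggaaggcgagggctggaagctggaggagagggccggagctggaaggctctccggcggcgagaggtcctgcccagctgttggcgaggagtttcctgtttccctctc
The Tgfbr1 promoter had a GC content of 74.7% and the Tgfbr2 promoter one of 59.0%, against a median of 52.7% over 32851 promoters of the same length. GGGCGG occurred 2 times for Tgfbr1 and 0 times for Tgfbr2, and 35.7% of all promoters hold it on either strand. CAGAC, the 5-base element of Smad binding sites, or its reverse complement GTCTG occurred 0 times for Tgfbr1 and 1 time for Tgfbr2, and 49.6% of all promoters hold it. TATAAA was found in neither, against 13.6% of all promoters. These matches describe the letters in the window and no binding was measured. Of the other genes, Tgfb1 and Ski each held 6 GC boxes in this window and Smad3 held 2, and Tgfbr3 and Skil had no entry.

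Tgfbr3 (ENSMUSG00000029287, chr5:107106570-107289629, minus strand) encodes betaglycan, a co-receptor that presents the ligand to Tgfbr2. It was scarce in all libraries. Young libraries had 0 counts in male 1, 39 in male 2, 132 in male 3, 43 in female 1, 122 in female 2 and 157 in female 3, which is 0, 1.83, 6.30, 5.98, 4.85 and 9.04 CPM. Middle-aged libraries had 11 counts in male 1, 13 in male 2, 24 in female 1, 3 in female 2 and 64 in female 3, which is 0.523, 0.767, 1.27, 0.125 and 3.04 CPM. In 4 of the 6 young libraries the level was above that of every middle-aged library, while young male 1 lay below all of them, and its count of 0 allows up to 0.543 CPM. The means were 4.67 ± 3.27 CPM in young libraries and 1.14 ± 1.14 CPM in middle-aged ones.

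The log2 fold change of Tgfbr3 was -2.13 (SE 0.96), with an unadjusted p of 0.0459 and an adjusted p of 1.00 in edgeR, an adjusted p of 0.205 in limma voom and one of 0.597 in DESeq2. The exact 2-sided permutation test on log2 CPM gave a difference of -1.59 and p = 0.221. The direction was the same without any 1 library (-2.65 to -1.57), but the unadjusted p ran from 0.00853 without young male 1 to 0.135 without young male 3 and was under 0.05 in 2 of these 11 fits. Middle-aged minus young, the mean log2 CPM of libraries numbered 2 differed by -2.77 and that of libraries numbered 3 by -1.28. That of libraries numbered 1 differed by 0.19, in the other direction. They include the count of 0, whose log2 CPM is set by the prior count. The sort on CD8 would remove NK cells, and their 8 markers, all detected in every library, summed to 1180 to 1578 CPM in young libraries and 782 to 1603 CPM in middle-aged ones. In young and middle-aged libraries, Ncr1 was at 25.1 to 120.1 and 1.81 to 48.8 CPM. Klrb1c was at 34.2 to 135 and 30.2 to 95.1 CPM, and Gzma at 215 to 472 and 23.5 to 335 CPM. Tyrobp was at 49.6 to 173 and 30.1 to 188 CPM, and Fcer1g at 68.5 to 138 and 41.1 to 136 CPM. Itga2 was at 6.12 to 26.9 and 5.47 to 15.2 CPM. Klre1 was at 132 to 397 and 203 to 590 CPM, and Txk at 278 to 466.3 and 382 to 696 CPM. The part of NK cells in the Tgfbr3 values was not tested. On the same strand, 297 exonic bases of Tgfbr3 are shared with the predicted gene Gm43422, so its counts may be split between them.

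**Figure D3:**
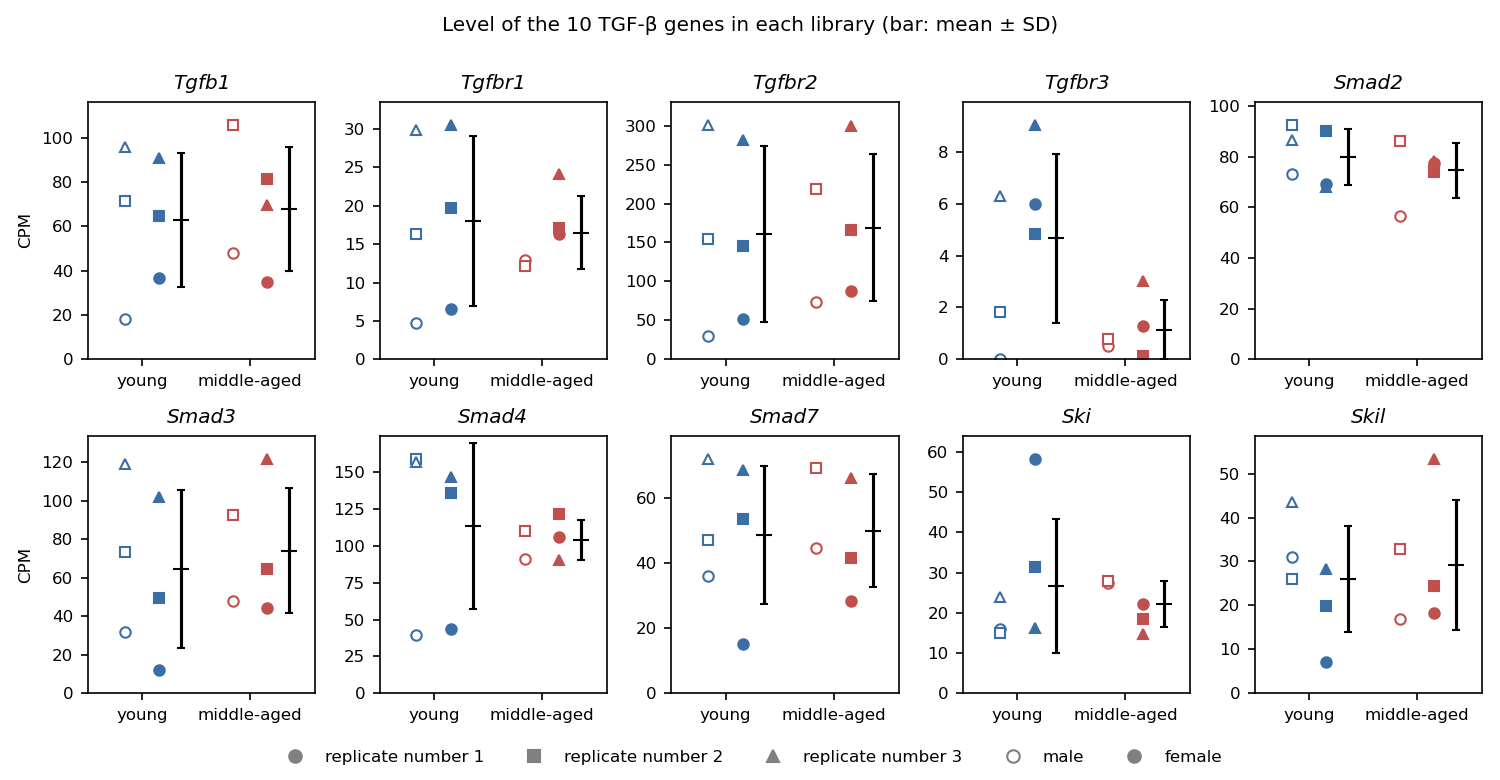
Level (CPM) of the 10 genes in each of the 6 young (blue) and 5 middle-aged (red) libraries, with males as open and females as filled symbols, shapes for the replicate number, and black bars for mean ± SD. The age groups overlap in every gene, and 4 young libraries lie above all middle-aged libraries for Tgfbr3.

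Smad2 (ENSMUSG00000024563, chr18:76241580-76305731, plus strand) is one of the transcription factors that the receptor phosphorylates. It was the steadiest of the 10, at 68.2 to 92.5 CPM in young libraries with a median of 79.9 CPM. Middle-aged libraries had 56.7 CPM in male 1, 86.3 in male 2, 77.6 in female 1, 73.9 in female 2 and 78.3 in female 3. Only middle-aged male 1 lay outside the young range. Means were 80.0 ± 10.99 and 74.6 ± 10.96 CPM, and the log2 fold change was -0.10 (SE 0.19, adjusted p = 1.00 in edgeR, exact permutation p = 0.439).

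Smad3 (ENSMUSG00000032402, chr9:63646767-63757994, minus strand), the other receptor-activated Smad, varied far more. Its young values ran from 12.2 CPM in female 1 to 119 CPM in male 3, with a median of 61.6 CPM. The middle-aged values were 48.1 CPM in male 1, 92.7 in male 2, 44.2 in female 1, 64.7 in female 2 and 122 in female 3. The 2 lowest young libraries, male 1 and female 1, lay below all middle-aged ones, and the other young values lay among them. The log2 fold change was 0.23 (SE 0.51, adjusted p = 1.00 in edgeR, exact permutation p = 0.519). The log2 ratio of Smad2 to Smad3 within a library was 0.64 ± 1.15 in young and 0.10 ± 0.53 in middle-aged libraries, a difference of -0.54 (exact permutation p = 0.370).

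Smad4 (ENSMUSG00000024515, chr18:73639009-73703780, minus strand) is the partner that Smad2 and Smad3 share. Young libraries fell into 2 ranges, with 39.8 CPM in male 1 and 43.4 in female 1, and 136 to 158 CPM in the other 4. The middle-aged values, 90.6 CPM in male 1, 109.8 in male 2, 106 in female 1, 122 in female 2 and 90.6 in female 3, lay between those ranges. Accordingly the SD was 56.2 CPM around a mean of 113 CPM in young libraries and 13.3 CPM around 104 CPM in middle-aged libraries. The log2 fold change was -0.13 (SE 0.38, adjusted p = 1.00 in edgeR). Mean log2 CPM differed by 0.08, in the other direction (exact permutation p = 0.818). Young male 1 and young female 1 were also the only libraries under 10000000 counts, and the only young ones numbered 1. Without these 2 libraries the log2 fold change of Smad4 was -0.53 (SE 0.16), with an unadjusted p of 0.00825 and an adjusted p of 0.483 in edgeR, and that of Tgfbr1 was -0.62 (SE 0.28, unadjusted p = 0.0486, adjusted p = 0.776 in edgeR). Tgfbr3 stood at -2.42 (SE 0.76, adjusted p = 0.526) in that fit. The same 9 libraries gave -0.24 for Tgfb1, -0.41 for Tgfbr2 and -0.20 for Smad3, each above 0 with all 11 libraries. They still include both middle-aged libraries numbered 1, so in that fit age is partly confounded with replicate number. Mean log2 CPM of libraries numbered 1 minus that of the others was -1.01 for Smad4 and -1.17 for Tgfbr1. With all 11 libraries and the replicate number in the model, Smad4 stood at 0.16 and Tgfbr1 at 0.27.

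Among the inhibitors, Smad7 (ENSMUSG00000025880, chr18:75367529-75395935, plus strand) is itself induced by TGF-β and shuts off the receptor. Its young values ran from 15.2 CPM in female 1 to 71.9 CPM in male 3 with a median of 50.4 CPM. Middle-aged libraries had 44.8 CPM in male 1, 69.3 in male 2, 28.3 in female 1, 41.7 in female 2 and 66.0 in female 3. Every middle-aged value fell within the young range. Mean levels were 48.7 ± 21.2 and 50.02 ± 17.3 CPM, and the log2 fold change was 0.05 (SE 0.38, adjusted p = 1.00 in edgeR, exact permutation p = 0.803).

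Skil (ENSMUSG00000027660, chr3:31095058-31122577, plus strand) encodes SnoN, a nuclear repressor of Smad complexes that TGF-β causes to be degraded. It ran from 7.09 CPM in female 1 to 43.5 CPM in male 3 among young libraries, with a median of 27.2 CPM. Middle-aged libraries had 17.0 CPM in male 1, 32.9 in male 2, 18.3 in female 1, 24.5 in female 2 and 53.3 in female 3. The lowest library was young and the highest middle-aged, with the rest mixed. The log2 fold change was 0.27 (SE 0.45, adjusted p = 1.00 in edgeR, exact permutation p = 0.701).

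Ski (ENSMUSG00000029050, chr4:155154075-155222592, minus strand) encodes a repressor related to SnoN. Young libraries had 15.9 CPM in male 1, 14.9 in male 2, 23.8 in male 3, 58.1 in female 1, 31.4 in female 2 and 16.1 in female 3. Middle-aged libraries had 27.3 CPM in male 1, 28.0 in male 2, 22.1 in female 1, 18.5 in female 2 and 14.8 in female 3. In males both middle-aged values lay above all young ones, while in females 2 of 3 young values lay above all middle-aged ones. Over both sexes the log2 fold change was -0.23 (SE 0.40, adjusted p = 1.00 in edgeR, exact permutation p = 0.771). The log2 ratio of Skil to Ski within a library was -0.04 ± 1.58 in young and 0.30 ± 0.96 in middle-aged libraries and differed by 0.34 (exact permutation p = 0.742).

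The difference of Ski between ages was compared between the sexes with an interaction term, which was -1.53 (SE 0.69, females over males, log2), with an unadjusted p of 0.0484 and an adjusted p of 1.00 in edgeR. It kept its sign without any 1 library (-1.87 to -0.96), with an unadjusted p under 0.05 in 2 of 11 fits. Ski was 1 of 10 genes with an unadjusted p under 0.05 for the interaction, against 1.20% of all genes tested, and 0 genes of 13129 passed the adjusted threshold. For sex itself, 0 of the 10 genes passed an adjusted p of 0.05 in edgeR, against 0.0381% of all genes tested, and the smallest unadjusted p was 0.210, for Tgfbr3, which was higher in females by 1.23 (SE 0.93, log2).

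Levels were also set out by replicate number. Tgfbr2 was 30.2 to 87.6 CPM in the 4 libraries numbered 1, 146 to 219 CPM in the 4 numbered 2 and 282 to 301 CPM in the 3 numbered 3. Smad3 was 12.2 to 48.1, 49.6 to 92.7 and 102 to 122 CPM in the same sets. In both genes the 3 sets did not overlap. Such an order, with number 1 lowest and number 3 highest, was seen in 2 of the 10 genes, in 3.93% of all genes tested and in 6.68% of the 5914 tested genes within the length range of the 10. Tgfb1 was 18.1 to 48.0 CPM in libraries numbered 1, below all others (64.8 to 106 CPM). With it, 3 of the 10 genes had all libraries numbered 1 below the rest, against 12.3% of all genes tested and 19.5% of genes within that length range.

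The mean log2 CPM of libraries numbered 1 minus that of the others was -1.93 for Tgfbr2, -1.49 for Smad3, -1.41 for Tgfbr3 and -1.33 for Tgfb1. Among all tested genes in the same decile of gene length as Tgfbr2, the median was -0.77 and the lower quartile -1.47. Tgfbr1 (-1.17), Smad7 (-1.02), Smad4 (-1.01), Skil (-0.93) and Smad2 (-0.25) were also below 0. Ski alone was above 0, at 0.43, where the upper quartile of genes in its decile of length was 0.06. Each age had 2 libraries numbered 1, and what the replicate number stands for was not tested.

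**Figure D4:**
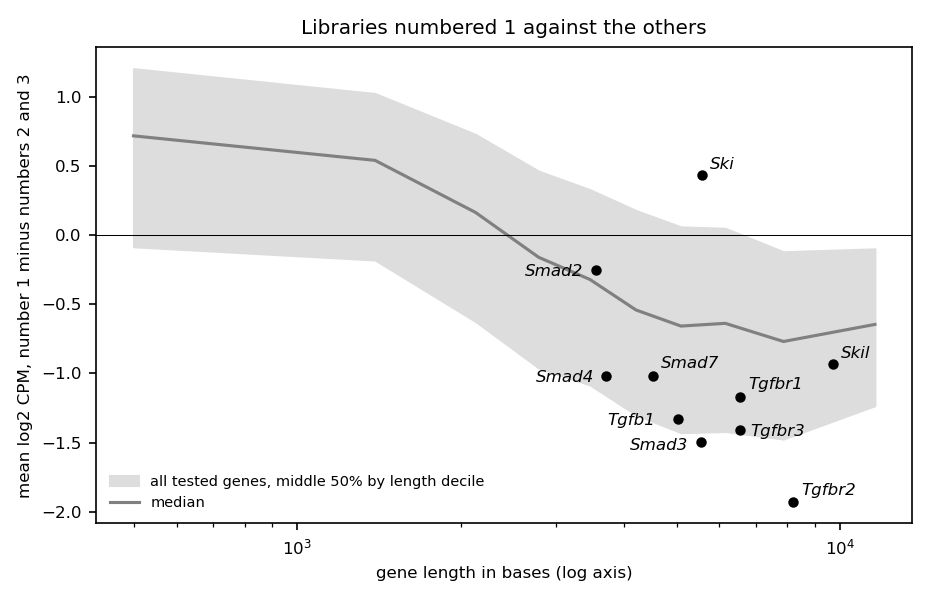
Mean log2 CPM of the 4 libraries numbered 1 minus that of the other 7, against gene length (log axis), for the 10 genes (points) and for all tested genes by deciles of length (grey line, median, and grey band, middle 50%). The band falls with gene length, Tgfbr2 and Smad3 lie below it and Ski lies above it.

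Of 73 other genes of the pathway in 6 lists, 56 passed the filter on low counts. None of them passed an adjusted p of 0.05 in edgeR with the filter and the model used for the 10 genes. With no filter beyond 1 count Id3 passed (adjusted p = 0.0456), and with the gene length slope of each library as a covariate Id2 and Id3 passed (adjusted p = 0.0154 and 0.0140). At an unadjusted p under 0.05, 3 were higher and 3 were lower in middle-aged CD8+ Tregs, against 2.00% and 0.990% of all genes tested. The 2 ages did not overlap in 3 of the 56, against 1.31% of all genes tested. The median log2 fold change over the 56 genes was 0.01. The lists were chosen with results of these data known.

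Of 13 genes for other ligands and for ligand activation, 4 were tested, and 0 had an unadjusted p under 0.05. They were Tgfb3, another TGF-β ligand (log2 fold change -1.68, SE 1.63), Nrros, which anchors latent TGF-β1 on cells (-0.15, SE 0.27), Furin, the protease that cuts the proprotein (-0.23, SE 0.66), and Itgav, the αv integrin subunit (0.11, SE 0.57). Their median was -0.19, and Tgfb3 ran from -3.46 to -1.20 in the fits without 1 library in which it was tested. Tgfb2, a further TGF-β ligand, had at most 6 counts in a library, and Itgb8, the partner of αv that releases active TGF-β, at most 5. Itgb6 and Ltbp2 had 0 counts in all 11 libraries. Of 4 genes of the arm that signals without Smads, which runs through the kinase TAK1, all 4 were tested and 0 had an unadjusted p under 0.05. These were Tab2 (-0.16, SE 0.27), Map3k7, which encodes TAK1 (0.23, SE 0.42), Traf6 (-0.15, SE 0.29) and Tab1 (-0.21, SE 0.68).

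Of 14 receptor partners and related receptors, 10 were tested, with a median of -0.07. At an unadjusted p under 0.05, 1 was higher and 1 was lower, against 2.00% and 0.990% of all genes tested. Eng (endoglin), a co-receptor related in sequence to Tgfbr3, was 0.362 to 11.8 CPM in young libraries and 0.543 to 2.99 CPM in middle-aged ones. Its log2 fold change was -2.44 (SE 0.81, unadjusted p = 0.0107, adjusted p = 0.899 in edgeR), with an adjusted p of 0.0158 in limma voom and 0.0894 in DESeq2. The groups overlapped, and the exact permutation p was 0.0736. Bmpr1a, a receptor for bone morphogenetic proteins, was 0 to 2.03 CPM in young libraries and 2.97 to 7.30 CPM in middle-aged ones, which did not overlap. Its log2 fold change was 2.23 (SE 0.79, unadjusted p = 0.0163, adjusted p = 1.00 in edgeR), with an adjusted p of 0.0371 in limma voom and 0.139 in DESeq2. Without any 1 library it ran from 1.92 to 3.22, the latter without young female 2. Bambi, a decoy receptor (1.15, SE 0.84), and Acvr2a, an activin receptor (0.97, SE 0.84), had unadjusted p above 0.05. These 4 genes were low, with mean levels of at most 7.32 CPM in either age.

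Of 18 regulators of Smad proteins, 16 were tested and 0 had an unadjusted p under 0.05, with a median of 0.00. Values of log2 fold change ranged from -0.59 to 0.48. Trim33, a Smad4 antagonist (-0.47, SE 0.36), the co-repressor Ncor1 (-0.23, SE 0.20), Usp15, a deubiquitinase of the pathway (-0.33, SE 0.30), and Pmepa1, an inhibitor induced by TGF-β (0.48, SE 0.46), had the smallest unadjusted p. Smad9 had 0 counts in all libraries.

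Of 8 genes known to be induced by TGF-β, 6 were tested and 0 had an unadjusted p under 0.05, with a median of 0.28. Ikzf2, which encodes Helios, a transcription factor of CD8+ Tregs, was 34.5 ± 17.9 CPM in young libraries and 23.3 ± 10.1 CPM in middle-aged ones (log2 fold change -0.57, SE 0.39, adjusted p = 1.00 in edgeR). Junb, a subunit of AP-1, was at 0.52 (SE 0.51). Cdkn1a, a cell cycle inhibitor (1.80, SE 1.22), and Foxp3, the transcription factor of CD4+ Tregs (1.496, SE 1.38), were scarce, with mean levels of at most 3.31 CPM in either age. Without any 1 library Cdkn1a ran from 0.75 to 2.13 and Foxp3 from 0.84 to 3.15. Foxp3 was highest in middle-aged females 2 and 3 (9.99 and 4.08 CPM), where Cd4 was 15.4 CPM in each. In the other middle-aged libraries Foxp3 was 0.618 to 1.11 CPM and Cd4 1.54 to 2.36 CPM. Among young libraries both were highest in female 3 (2.36 and 18.7 CPM). The part of CD4+ T cells in the Foxp3 values was not tested.

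Of 16 genes listed as repressed by TGF-β, 16 were tested, with a median of 0.08. At an unadjusted p under 0.05, 2 were higher and 2 lower, against 2.00% and 0.990% of all genes tested. Whether TGF-β represses each of them in CD8+ Tregs, Id3 included, was not tested. Id2, an inhibitor of E proteins that favours effector differentiation, was 186 to 264 CPM in young libraries and 295 to 582 CPM in middle-aged ones. Its log2 fold change was 1.03 (SE 0.21, adjusted p = 0.228 in edgeR, 0.0163 in limma voom and 0.000489 in DESeq2). Id3, the related inhibitor of long-lived T cells, was 286 to 804 CPM in young libraries and 88.8 to 267 CPM in middle-aged ones, with a log2 fold change of -1.501 (SE 0.35, adjusted p = 0.334 in edgeR, 0.0102 in limma voom and 0.00492 in DESeq2). In both genes the ages did not overlap, as in 1.31% of all genes tested, and the exact permutation p of each was 0.00216, the smallest that 462 splits can give.

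Fasl, a death ligand of cytotoxic cells, was 42.7 ± 29.1 CPM in young libraries and 124 ± 42.1 CPM in middle-aged ones (log2 fold change 1.64, SE 0.43, adjusted p = 0.457 in edgeR, exact permutation p = 0.00866). Gzma, which encodes granzyme A, was 327 ± 95.7 CPM and 94.9 ± 134 CPM (log2 fold change -2.20, SE 0.62, adjusted p = 0.558 in edgeR, exact permutation p = 0.0108). The middle-aged mean of Gzma rests on female 2, which had 335 CPM, while the other 4 middle-aged libraries had 23.5 to 43.8 CPM, all below the lowest young library (215 CPM). Without middle-aged female 2 the log2 fold change was -3.22, with an adjusted p of 0.00201 in edgeR. Limma voom and DESeq2 both gave adjusted p under 0.05 for Fasl and Gzma. Gzma is also abundant in NK cells and is 1 of the 8 NK cell markers described with Tgfbr3. Eomes, the T-box factor needed for CD8+ Tregs, was 164 ± 52.1 CPM in young libraries and 255 ± 81.9 CPM in middle-aged ones (log2 fold change 0.61, SE 0.31, adjusted p = 1.00 in edgeR, exact permutation p = 0.0779).

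**Figure D5:**
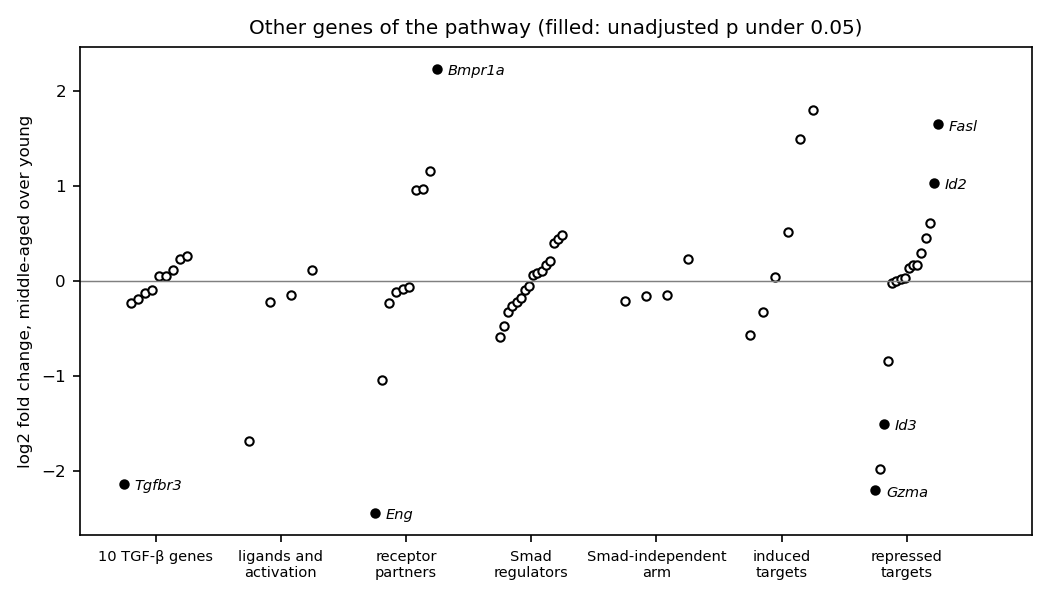
Log2 fold change, middle-aged over young, of each tested gene of the 10 and of the 6 other lists, with genes at an unadjusted p under 0.05 filled and named. Tgfbr3 (-2.13) and Eng (-2.44) lie lowest among receptors, Bmpr1a (2.23) highest, and Id2, Id3, Fasl and Gzma are the named genes among those listed as repressed targets.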

How the data were processed

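RNA was extracted from sorted splenic CD8+ Tregs and made into libraries with a SMARTer kit for low input. The authors deposited raw counts, the number of reads per Ensembl gene (54532 genes) in each of 11 libraries, with gene coordinates and gene lengths. The submitters' processing notes name kallisto and mm10 with no role, all values are whole numbers, and the counter, its strand setting and the study's test are not given in the sources used here. 0 columns of sample values were left unused.

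Groups came from the sample labels. Computations used R 4.3.3, edgeR 4.0.16, limma 3.58.1 and DESeq2 1.42.0. Genes were kept by filterByExpr (minimum count 10, minimum total 15; 13129 genes). Age was tested by glmQLFTest after TMM scaling and a robust glmQLFit with sex as covariate, with Benjamini-Hochberg adjustment over all tested genes. Log2 CPM used a prior count of 2. Exact 2-sided permutation tests ran over all 462 assignments of 11 libraries to groups of 6 and 5. With a replicate block, assignments were made only within replicate numbers. The steps were tested on simulated data that held an age effect and no trend by replicate number or gene length. Genes named were the 10 members, Eomes and Ikzf2, and up to 4 tested genes of each list with the smallest unadjusted p. Other genes given at 0 or few counts, the single markers of NK cells, Cd4 and Gm43422 were named after their values were seen. The members and lists were chosen with earlier results of these data known. Alternatives were other factors, no filter, DESeq2, voom with quality weights, no sex term, gene length terms, a replicate block, each sex, deep libraries only, another prior count and each library left out. Promoters came from RefSeq tables of GRCm38.p6, with none shown from chromosome 18.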

Additional observations from a re-analysis of the deposited data

Results flagged for a closer look

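In each age group, the lowest and the highest value of each of the 10 genes were compared with the rest of their group, 20 groups of values in all, of which about 1 would be set apart by chance. One value stood apart. The level of Tgfbr3 was 0 CPM in young male 1, and the other 5 young libraries had 1.83 to 9.04 CPM. On log2 CPM the gap was 0.649 of the whole range. The log2 CPM of that count of 0 (-3.18) is set by the prior count, so the size of the gap depends on that setting. Young male 1 had the lowest total count, 6135736, and its count of 0 allows up to 0.543 CPM. Without it the log2 fold change of Tgfbr3 with age was -2.35 (SE 0.73), with an unadjusted p of 0.00853 and an adjusted p of 0.678 in edgeR. The cause of the low value was not tested.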

How the results depend on the processing

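With 5 and 6 libraries per age the SEs of the 10 genes were 0.19 to 0.96 (log2), and differences of several SEs also missed the adjusted threshold, such as that of Id2 (1.03, SE 0.21). Tgfbr3 kept its direction under 12 of 12 alternatives (-2.48 to -1.88, adjusted p 0.205 to 1.00) and 11 of 11 fits without 1 library. The count of the 10 genes past an adjusted p of 0.05 for age, for sex and for the interaction stayed at 0 under every alternative run. Over all genes, 3 were called for age (1 to 4 without 1 library), against 17 with no filter beyond 1 count, 112 in DESeq2, 138 in limma voom with quality weights, 5 with no sex term, 45 with the gene length slope as a covariate, 6 in libraries over 10000000 counts, and 0 in males and 0 in females alone. For sex 5 were called (0 to 5 without 1 library).

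Replicate numbers are shared between the groups. Each library was taken as its deviation from its group's mean, gene by gene. Same-numbered libraries deviated together, though unevenly (Pearson correlations of 0.0250 to 0.558 over 15 pairs, across genes, 2 of them under 0.1). Libraries numbered 1 correlated with those of other numbers at -0.508 to -0.103, and numbers 2 with numbers 3 at 0.0720 to 0.397. Deviations in a group sum to 0, so these values are tied to one another and are not separate evidence. The 2 middle-aged males mirror each other exactly. Without middle-aged male 2, numbers 2 correlated with numbers 3 at 0.0720 to 0.256. The main model leaves the number out, so its SEs and p-values include the spread between the numbered sets. With a replicate block 19 genes were called for age, and 23 with the block and a gene length offset. With the block the Smad2 to Smad3 ratio differed by -0.66 (exact permutation p = 0.0185), Tgfbr2 by 0.46 (p = 0.0278) and Smad3 by 0.57 (p = 0.0463) in log2 level. Id2 (0.98, adjusted p = 0.0445) and Id3 (-1.60, adjusted p = 0.0295) passed the threshold in edgeR with the block, and with block and offset (adjusted p = 0.0428 and 0.0257). The scarce Foxp3 stood at 4.13 with the block (SE 1.36, adjusted p = 0.414 in edgeR) and did not pass. In edgeR with the block, Tgfbr2 stood at 0.50 (SE 0.20, adjusted p = 0.510) and Smad3 at 0.67 (SE 0.22, adjusted p = 0.409). Without the block their SEs were 0.59 and 0.51. The sign turned with the block for Tgfbr1 (0.27), Smad4 (0.16), Furin (0.21) and Tab1 (0.13), and with block and offset to 0.23, 0.16, 0.13 and 0.14.

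Other signs also turned, from log2 fold changes of -0.33 to 0.27 with all libraries, and the cause was not tested. In voom these were Tgfbr2 (-0.068), Smad3 (-0.0033), Smad7 (-0.0011), Ski (0.30), Itgav (-0.18), Tab2 (0.18) and Map3k7 (-0.094), and with the length slope Tgfbr1 (0.028) and Smad4 (0.00048). In libraries over 10000000 counts, none of them young and numbered 1, they were Tgfb1 (-0.24), Tgfbr2 (-0.41), Smad3 (-0.20), Smad7 (-0.27), Ski (0.017), Skil (-0.0036), Nrros (0.035), Itgav (-0.26), Tab2 (0.064) and Map3k7 (-0.17). In males they were Tgfbr2 (-0.15), Smad3 (-0.090), Ski (0.60), Skil (-0.42), Itgav (-0.53), Tab2 (0.028) and Map3k7 (-0.024), and in females Tgfb1 (-0.041), Tgfbr1 (0.019), Smad2 (0.024), Smad7 (-0.0081), Usp15 (0.21) and Tab1 (0.50). Without 1 library the values ran from -0.16 to 0.30 for Tgfb1, -0.42 to 0.10 for Tgfbr1, -0.25 to 0.38 for Tgfbr2, -0.17 to 0.023 for Smad2, -0.050 to 0.60 for Smad3, -0.33 to -0.0020 for Smad4, -0.15 to 0.26 for Smad7, -0.37 to 0.12 for Ski and -0.10 to 0.54 for Skil. They ran from -0.26 to 0.0076 for Nrros, -0.44 to 0.31 for Furin, -0.17 to 0.67 for Itgav, -0.0022 to 0.47 for Map3k7, -0.39 to 0.027 for Traf6 and -0.61 to 0.14 for Tab1. The Tgfbr1 to Tgfbr2 ratio ran from -0.34 to 0.10 and the Skil to Ski ratio from -0.25 to 0.59.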
